A study of Sus scrofa with 28 samples.

Results

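Insulin-like growth factor 2 (IGF2) was followed in the loin muscle (Longissimus dorsi) of 28 male piglets at weaning, at 28 days of age. There were 14 purebred Iberian piglets (IB) and 14 Duroc × Iberian crossbreds (DU×IB), all from Iberian dams, so that the genetic types differed in their sires. The probe sets were chosen by gene symbol alone, and 7 of the 5226 probe sets of the table are named IGF2, 1 of 2275 named genes. Each piglet had a porcine genome array of its own, and levels are log2 values after GCRMA normalization, in which a difference of 1 is a 2-fold change. Arrays were hybridized in 2 series, taken here as piglets 1 to 8 (16 arrays) and piglets 9 to 14 (12 arrays), each with as many IB as DU×IB piglets.

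IGF2 is a secreted peptide hormone that drives growth before birth and around it. It acts mainly through the IGF1 receptor and the insulin receptor, is held in the tissue by IGF binding proteins, and is cleared by the IGF2 receptor. The gene is imprinted and expressed from the paternal copy in most tissues, and in growing muscle it is made by myogenic and connective tissue cells and promotes the growth of muscle fibres. The study states that the Duroc sires passed on a substitution in an intron of IGF2 that is known to raise its expression in muscle, so this allele and the rest of the Duroc genome cannot be told apart here.

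The labels do not tie piglets to litters, and the study's crossbred piglets came from fewer litters than the purebred ones, so the p-values treat littermates as independent and measure the spread between these piglets. Medians of the single arrays lay between 6.01 and 7.02 for IB and between 6.24 and 7.05 for DU×IB, and precision is limited by how many arrays there are. The mean of 10 bacterial spike-in probe sets, RNA that the laboratory adds and no piglet makes, ran from 8.93 to 9.68 in the series of 16 arrays and from 6.19 to 7.01 in the series of 12, which separates the series without overlap. Of the markers of mature muscle fibres, 2 of 14 had a probe set here, ATP2A1, the calcium pump of fast fibres, with a mean of 12.3 in IB and 12.2 in DU×IB, and PYGM, the glycogen phosphorylase of muscle, with 9.00 and 8.88.

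The 7 probe sets are called A to G, from the highest to the lowest mean over all arrays. A is the only one outside the array's sequence cluster Ssc.9365, to which the others belong, as Ssc.9365.2.S1_a_at (B), Ssc.9365.3.S1_x_at (C), Ssc.9365.5.S1_a_at (D), Ssc.9365.3.S1_a_at (E), Ssc.9365.6.S1_x_at (F) and Ssc.9365.5.S1_at (G). On this platform the ending a_at marks probes shared by several transcripts of a gene (B, D and E), and x_at marks probes that may also bind other sequences (C and F). Levels of different probe sets depend on their probes and are not compared with each other. The table holds only probe sets that passed the study's variation filter, which asks that over 20% of the values lie 1.5-fold or more away from the median. Within IB alone this share was over 20% for 5 of the 7 and was 7.14% for F and for G, and within DU×IB it was over 20% for 7 of 7, so that F and G passed through the DU×IB arrays or the gap between the genetic types.

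IGF2 was higher in DU×IB than in IB by every probe set, by 1.43-fold to 6.47-fold, and 4 of them put every DU×IB piglet above every IB piglet of the same series. With the series as a covariate in limma (a two-sided test with Benjamini-Hochberg adjustment across the whole table and a threshold of 0.10), A to E were called higher in DU×IB, where 2.07% of the table was called in that direction. F and G were called as well, but as they passed the variation filter through the DU×IB arrays or the gap itself, their calls add no support. With no covariate A to E were called, against 0.765% of the table. F was called there too, which again adds no support, and G was not.

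For probe set A the IB piglets ran from 7.54 to 10.04, with a median of 9.16, and the DU×IB piglets from 10.04 to 12.27, with a median of 11.00. The ranges met at one point, where IB piglet 3, the highest of its type, and DU×IB piglet 11, the lowest of its type, stood at the same rounded level on arrays of different series. In the series of 16, IB lay between 9.07 and 10.04 and DU×IB between 10.69 and 12.27. In the series of 12, IB lay between 7.54 and 8.28 and DU×IB between 10.04 and 10.95. The genetic types were therefore apart in each series, with gaps of 0.65 and 1.76 on the log2 scale. The difference was 2.27 (SE 0.16, limma adjusted p = 2.08e-11, n = 14 per type), a 4.83-fold higher level in DU×IB (95% interval 3.86 to 6.06), and it had the lowest p of the table. Labels permuted within series gave p = 1e-05, the smallest that 100000 permutations can give (permutation test, two-sided). Exact permutation tests gave p = 0.000155 with 8 piglets per type and p = 0.00216 with 6 per type, again the smallest these designs allow.

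Probe set B had the largest difference of the 5226 probe sets among those higher in DU×IB. Its IB piglets ran from 5.68 to 8.74 (median 7.14) and its DU×IB piglets from 8.69 to 11.41 (median 9.54). The highest IB piglet, number 3, was above the lowest DU×IB piglet, number 9, but they were on arrays of different series, and within series the types did not overlap. The difference was 2.69 (SE 0.22, limma adjusted p = 6.45e-10), or 6.47-fold.

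Probe sets D and E separated the genetic types over all 28 arrays, whatever the series, and no other probe set of the table did so with DU×IB above IB. For D, IB ran from 4.61 to 7.05 (median 5.96) and DU×IB from 7.06 to 9.74 (median 8.07), with a difference of 2.38 (SE 0.20). For E, IB ran from 4.23 to 6.59 (median 5.21) and DU×IB from 6.64 to 9.01 (median 7.43), with a difference of 2.38 (SE 0.21). These are 5.20-fold and 5.22-fold higher levels in DU×IB, with limma adjusted p of 1.84e-09 and 1.97e-09. The 4 probe sets A, B, D and E held the 4 lowest p-values of the table. They were also the only probe sets of the 5226 in which the lowest DU×IB piglet was above the highest IB piglet in both series, a share of 0.0765%.

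The probe sets C and F, which may bind other sequences, showed a smaller difference. For C, IB ran from 5.51 to 7.60 (median 6.93) and DU×IB from 7.49 to 9.21 (median 7.89), and 13 of 14 DU×IB piglets were above the highest IB piglet of their series. For F, IB ran from 4.03 to 5.62 (median 5.20) and DU×IB from 5.38 to 7.25 (median 5.99), again with 13 of 14 above. Each overlapped only by DU×IB piglet 5, the lowest of the DU×IB piglets of its series by A to F. The difference was 1.29 for C (SE 0.19, limma adjusted p = 0.00015) and 1.05 for F (SE 0.18, limma adjusted p = 0.000576), or 2.44-fold and 2.07-fold.

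Probe set G was dim and the least certain. Its IB piglets ran from 2.95 to 4.23 (median 3.28) and its DU×IB piglets from 2.96 to 4.80 (median 3.51), and a level above 4 was reached by 1 IB piglet and 5 DU×IB piglets, all in the series of 16. The difference was 0.52 (SE 0.15, limma adjusted p = 0.0792), or 1.43-fold, and 9 of 14 DU×IB piglets were above the IB median. With no covariate the adjusted p was 0.421, and the call was lost without any of 13 of the 28 piglets, left out singly, with an adjusted p of up to 0.142 (limma).

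**Figure D1:**
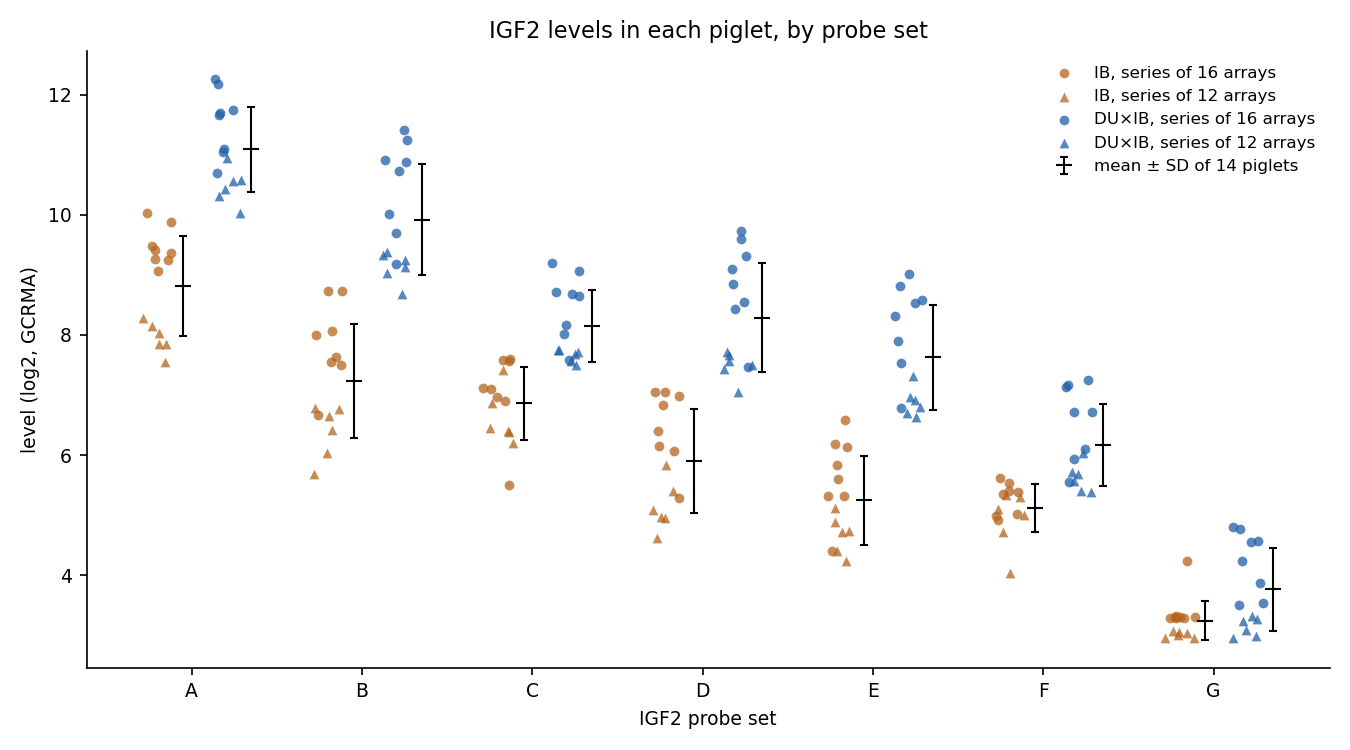
Level of IGF2 (log2, GCRMA) in each piglet for probe sets A to G, with IB in brown and DU×IB in blue, circles for the series of 16 arrays, triangles for the series of 12, and bars for the mean and SD of 14 piglets. For A, DU×IB lies between 10.04 and 12.27 and IB between 7.54 and 10.04, and the IB triangles lie below all IB circles.

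The size of the difference itself differed between probe sets. In each piglet one probe set was subtracted from another, and the genetic types were compared on the result with labels permuted within series (21 pairs, 100000 permutations, two-sided, Benjamini-Hochberg over the pairs); these comparisons were chosen after the levels had been seen. All pairs of one of A, B, D and E with one of C and F differed, by 0.99 to 1.64, each with an adjusted p of 1.75e-05 (permutation; the unadjusted 1e-05 is the smallest possible). The pairs with G, most of whose values lay under 4, are not read. B exceeded A by 0.42 (adjusted p = 0.004, permutation), D by 0.32 and E by 0.31 (adjusted p = 0.00763 and 0.00761, permutation). No difference was detected between A and D, A and E, D and E, or C and F, with adjusted p from 0.138 to 0.952 (permutation).

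The difference was present in each hybridization series. From the series of 16 to the series of 12 it went from 2.08 to 2.53 for A, 2.66 to 2.75 for B, 2.40 to 2.34 for D and 2.51 to 2.21 for E. For C it went from 1.47 to 1.04, for F from 1.30 to 0.72 and for G from 0.81 to 0.13. Tested alone with limma, A to E were called in the series of 16, where 0.153% of the table was called higher in DU×IB, and in the series of 12, where it was 2.39%. F was called in the series of 16 and not in the series of 12 (adjusted p = 0.107, limma), and G in neither. An interaction of genetic type and series was called for none of the 7 and for 0% of the table (limma), with an unadjusted p under 0.05 for 1 of 7, probe set G (p = 0.0231, limma), and for 333 of all probe sets.

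**Figure D2:**
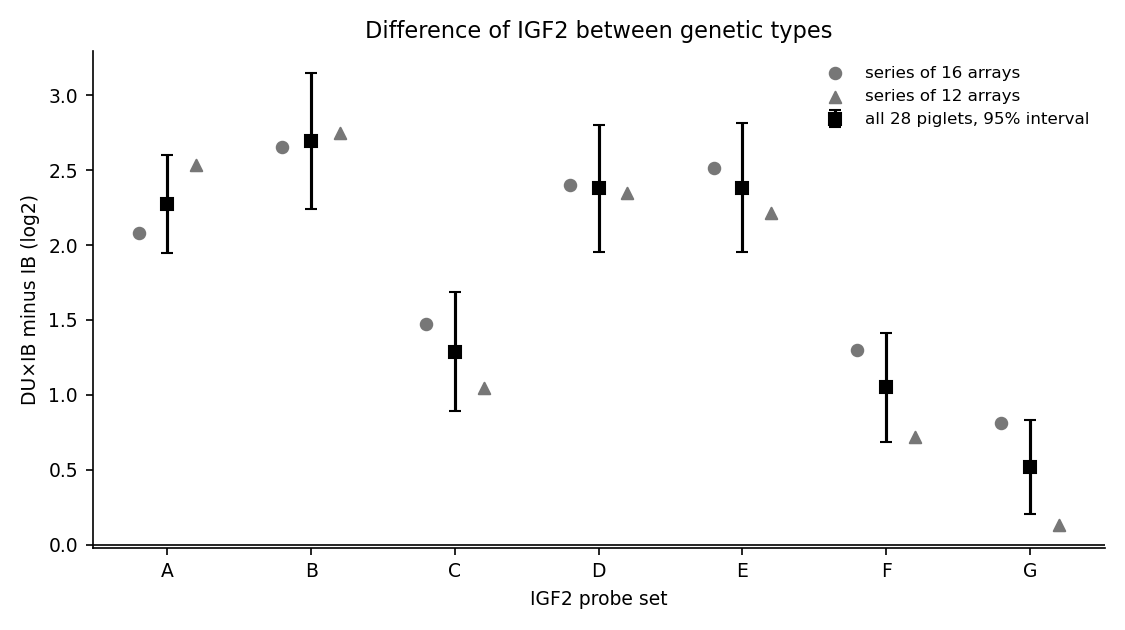
DU×IB minus IB (log2) for IGF2 probe sets A to G, with squares and 95% intervals for all 28 piglets (limma, series as covariate), circles for the series of 16 arrays and triangles for the series of 12. A, B, D and E lie between 2.08 and 2.75 and C, F and G between 0.13 and 1.47.

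IGF2 was also lower in the series of 12 than in the series of 16 in both genetic types, by all 7 probe sets. For A the order of the means was 11.55 ± 0.56 (SD, n = 8) in DU×IB of the series of 16, 10.48 ± 0.30 (SD, n = 6) in DU×IB of the series of 12, 9.47 ± 0.33 (SD, n = 8) in IB of the series of 16 and 7.95 ± 0.26 (SD, n = 6) in IB of the series of 12. Of these neighbours the 2 DU×IB groups overlapped, DU×IB of the series of 12 and IB of the series of 16 met at 10.04, and the 2 IB groups did not overlap. The mean shift over the 7 probe sets was -0.93 in IB and -1.14 in DU×IB. Series ran through the whole table as well. The main axis of variation between arrays (first principal component) held 47.3% of the variance, with an r2 of 0.80 with series. Whether IGF2 shifted more than other probe sets was not tested. Series, and whatever else differed between piglets 1 to 8 and 9 to 14, cannot be told apart.

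Within a genetic type the probe sets varied together from piglet to piglet, with higher r in DU×IB. After each series was centred, Pearson r over the 21 pairs lay between 0.30 and 0.91 in IB, around a median of 0.61, and between 0.51 and 0.98 in DU×IB, around 0.90, with median Spearman rho of 0.59 and 0.86. Of the 42 correlations tested, 16 of 21 in IB and 20 of 21 in DU×IB passed an adjusted p of 0.10 (one of the pair permuted within series, 100000 permutations, n = 14). By their names C and E come from one sequence of the cluster, as do D and G, so the pairs are not separate measurements. Pairs of other probe sets were not tested, and 32.7% of probe sets were called with the IGF2 mean in DU×IB (limma). Whether the agreement is particular to IGF2 was not tested. The closest pair was D and E in IB (r = 0.91, rho = 0.86, permutation p = 2e-05) and B and C in DU×IB (r = 0.98, rho = 0.92, permutation p = 1e-05, the smallest possible). Among A, B, D and E the lowest r was 0.57 in IB and 0.88 in DU×IB.

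This agreement was lower without the 2 piglets of most distant level, which also narrows the range. It was lower in the series of 12 than in the series of 16. Without the 2 piglets farthest from the median of the first probe set of a pair, the median r was 0.45 in IB and 0.79 in DU×IB. Within the series of 16 the median r was 0.77 in IB and 0.96 in DU×IB, and within the series of 12 it was 0.53 and 0.32. In DU×IB of the series of 12, where the mean of the 7 probe sets spanned 0.37, the pairs with G had a median r of -0.46. In the series of 16 the same mean spanned 1.82, from 7.26 in DU×IB piglet 5 to 9.08 in DU×IB piglet 6. In IB of the series of 16, piglet 1 was the lowest at 5.60 and piglet 3 the highest at 7.11. Whether the probe sets were more closely related in DU×IB than in IB was not tested.

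**Figure D3:**
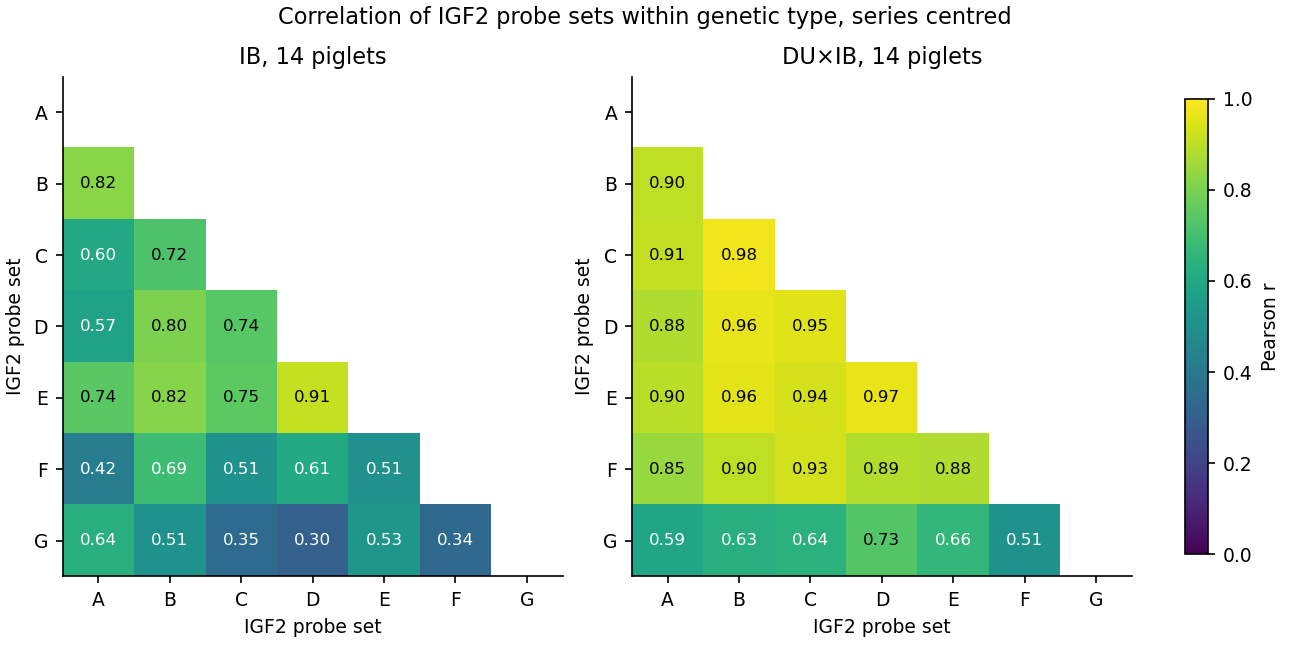
Pearson r between IGF2 probe sets over 14 IB piglets (left) and 14 DU×IB piglets (right), with each series centred; each cell is a pair. The lowest values lie in the row of G, and the median over the 21 pairs is 0.61 in IB and 0.90 in DU×IB.

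Genes whose levels followed IGF2 from piglet to piglet were sought within each genetic type, against the mean of the 7 probe sets with each series centred (5166 probe sets, those of IGF2 and the array's controls left out). This mean was itself related to measures of the whole array. Its r with the array median was -0.65 in IB (rho = -0.55, permutation p = 0.0536, adjusted 0.0536) and -0.76 in DU×IB (rho = -0.67, permutation p = 0.0122, adjusted 0.0185), with n = 14 each. With the bacterial spike-in mean it was 0.70 in IB (rho = 0.49, permutation p = 0.0138, adjusted 0.0185) and 0.67 in DU×IB (rho = 0.88, permutation p = 0.0007, adjusted 0.0028). Without the 2 piglets of most distant IGF2 level, r with the array median was -0.18 in IB and -0.78 in DU×IB, and r with the spike-in mean was 0.30 and 0.61. In IB both relations were weaker without those piglets, but leaving out the most distant levels narrows the range and can itself weaken r. Whether they rest on those piglets was not tested. Within the series of 16 and of 12, r with the array median was -0.70 and -0.65 in IB and -0.81 and -0.20 in DU×IB, and r with the spike-in mean was 0.84 and 0.02 in IB and 0.86 and 0.74 in DU×IB.

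With the series as the only covariate, the limma slope on IGF2 was called for 2 probe sets in IB, 0.0387% of those tested, and for 1691 in DU×IB, 32.7%. Of the 1691, 356 had a positive and 1335 a negative slope. With each array centred on its own median, 847 of 1573 called in DU×IB were positive, and 856 were called in IB. Leaving out a single IB piglet gave between 0 and 306 in IB, with 306 without piglet 6 and 303 without piglet 12. The 2 called in IB (Ssc.1679.1.S1_at and Ssc.4464.1.S1_at, r = -0.89 and -0.86, both with an adjusted p of 0.091 by limma, n = 14) have no gene name here. At an unadjusted p under 0.05 there were 1029 in IB and 1974 in DU×IB. A slope that differed between genetic types was called for 0 probe sets, 0%, with 249 at an unadjusted p under 0.05 and a smallest adjusted p of 0.324 (limma). The larger count in DU×IB is thus not shown to be a difference between the types. When the array median was added as a covariate, 0 probe sets were called in IB and 5 in DU×IB, and with the spike-in mean 0 and 7. These covariates were added after the data had been seen, and each takes 1 degree of freedom from 14 arrays.

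**Figure D4:**
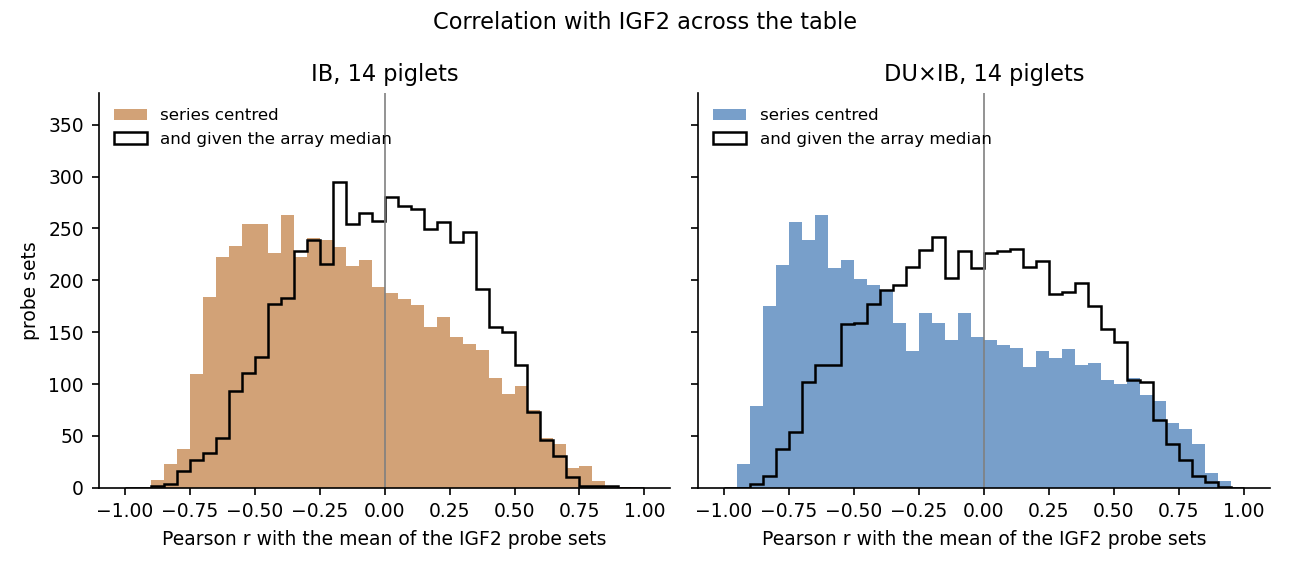
Number of probe sets by Pearson r with the mean of the IGF2 probe sets over 14 IB (left) and 14 DU×IB piglets (right), with each series centred (filled) and with the array median also taken out (line). The filled distributions have medians of -0.19 and -0.24, and the lines lie around 0.

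The named genes most like IGF2 in IB were led by TIAF1, a factor induced by TGF beta (r = 0.92, rho = 0.93, unadjusted permutation p = 4e-05). Its r was 0.95 and 0.89 in the series of 16 and of 12. TIAF1 was picked for the highest r in these same piglets, and the permutation p takes no account of that choice. The other 7 of the 8 highest were GPX7, a peroxidase of the endoplasmic reticulum; LIMS2, an adaptor at integrin adhesions; MAZ and NFIC, transcription factors; CHST10, a sulfotransferase; HNRNPL, a splicing regulator; and LAMB2, a laminin chain of the basement membrane. Their r ran from 0.78 to 0.84. At the other end were TSPAN13, a tetraspanin (r = -0.88); C4orf32 (r = -0.87); CCNG2, a cyclin that FOXO factors induce (r = -0.85); SRSF6, a splicing factor (r = -0.85); and AASDHPPT, which activates acyl carrier protein (r = -0.84). Without the 2 piglets of most distant IGF2 level, r ran from 0.45 (LAMB2) to 0.92 for the 8 highest and from -0.83 to -0.53 for the 5 lowest. Within the series of 12 (n = 6) it ran from 0.20 (LAMB2) to 0.89 and from -0.91 to -0.04 (AASDHPPT). By limma 0 of these 13 passed in IB, with adjusted p from 0.104 to 0.174. TIAF1 was at r = 0.51 in DU×IB and at 0.90 and 0.87 in IB once the array median or the spike-in mean was taken out.

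In DU×IB the highest r was that of ACSS2, which makes acetyl-CoA from acetate in the cytosol (r = 0.93, rho = 0.88, unadjusted permutation p = 0.00014). ACSS2 too was picked for its r in these same piglets, which the permutation p leaves out of account. It was at 0.92 with the array median taken out and at 0.88 with the spike-in mean taken out, and at r = 0.13 in IB. It was followed by DCTN1, a subunit of dynactin (r = 0.92), CDK16, a cyclin-dependent kinase (r = 0.92), AKT1S1, an inhibitor of mTORC1 that AKT phosphorylates (r = 0.89), PEMT, which makes phosphatidylcholine (r = 0.88), CTTNBP2NL (r = 0.88), CTCF, the insulator protein that binds the imprinting control region next to IGF2 (r = 0.88), and GATA3, a transcription factor that was dim here, at a mean of 3.40 (r = 0.88). The lowest r were those of QSER1 (-0.93), MZT1, a microtubule nucleation protein (-0.92), ITFG1 (-0.91), SRSF6 (-0.91) and DR1, a repressor of transcription by RNA polymerase II (-0.90). All 13 were picked for their r in these same piglets. That they passed in DU×IB (limma adjusted p from 0.00627 to 0.0154) therefore adds no support. Of all probe sets tested 32.7% passed. SRSF6 was among the 5 lowest in both genetic types. GATA3 was at r = -0.25 in IB. A gene with several probe sets stands in this ranking by the one of largest absolute r. The study names another probe set as GATA3, whose r is not given here. Without the 2 piglets of most distant IGF2 level, r ran from 0.71 to 0.91 for the 8 highest and from -0.93 to -0.86 for the 5 lowest. Within the series of 12 (n = 6) it ran from 0.10 to 0.83 and from -0.66 to -0.13. Of these 25 genes 1 was called between genetic types, C4orf32 (difference -0.55, limma adjusted p = 0.0538), where 2.77% of the table was called in either direction.

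The 10 lists around IGF2 held 213 genes, of which 50 had a probe set in this table, and 2 of the 50, IGF2 and MEG3, were called higher in DU×IB and 0 lower. Of all probe sets 2.77% were called in either direction, so that the share among the genes beside IGF2 was near that of any probe sets. The median difference over the 50 was -0.08 and that over all probe sets 0.02. Of ligands and receptors 1 of 7 genes had a probe set, IGF2 itself; the receptors that bind or clear it were not analysed here.

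Of binding proteins and their proteases 3 of 16 had one and 0 were called (limma). IGFBP6, the binding protein that prefers IGF2 to IGF1, differed by 0.55 (SE 0.30, adjusted p = 0.432). CTSD, a lysosomal protease, differed by -0.14 (adjusted p = 0.779), and STC1, an inhibitor of a protease that releases IGF from its binding proteins, by -0.53 (adjusted p = 0.589). Of regulators of IGF2 transcription and mRNA 4 of 18 had a probe set and 0 were called. PLAGL1, a zinc finger factor that is itself imprinted, differed by 0.28, CTCF by 0.28 and HMGA1, a chromatin protein, by 0.24, and E2F3, a cell cycle factor, by -0.24, with adjusted p from 0.508 to 0.594 (limma). The r of HMGA1 with IGF2 was 0.67 in IB and 0.79 in DU×IB, that of CTCF 0.52 and 0.88, that of E2F3 -0.37 and -0.66 and that of PLAGL1 0.02 and 0.31. None of the 4 passed in IB (lowest limma adjusted p 0.194, for HMGA1), and in DU×IB HMGA1, CTCF and E2F3 did, where 32.7% of the table did. None of the 10 genes on either side of IGF2 in RefSeq (Sscrofa11.1) had a probe set of that name here, where 2581 probe sets have no gene name. Of the wider list of neighbours on its chromosome 2 of 26 had one, TOLLIP, an adaptor of Toll-like receptor signalling (0.05), and CTSD, and neither was called.

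Downstream of the receptor 0 genes were called in any list (limma). Of substrates, adaptors and their brakes 5 of 19 had a probe set. The furthest apart were NEDD4, a ubiquitin ligase, at -0.61 (adjusted p = 0.252) and GRB10, an imprinted adaptor that dampens insulin and IGF signalling, at -0.58 (adjusted p = 0.236). Of PI3K, AKT and mTOR 6 of 39 had one, and EIF4EBP2, a brake on translation, stood at 0.86 (SE 0.46, adjusted p = 0.411) and DDIT4L, an inhibitor of mTOR, at -0.29 (adjusted p = 0.676). Of RAS and MAP kinases 7 of 26 had one, between -0.17 for DUSP1, a phosphatase of MAP kinases, and 0.16 for ELK1, a transcription factor they activate. Of FOXO factors and their targets, some of them genes of atrophy or arrest, 12 of 22 had one and 0 of 12 passed. Their median was -0.26, with no value above 0. FBXO32, a muscle ubiquitin ligase, stood at -0.63 (SE 0.52, adjusted p = 0.672) and GADD45A at -0.58 (SE 0.44, adjusted p = 0.618). The r of this list with IGF2 had a median of -0.28 in IB and 0.19 in DU×IB. In DU×IB FOXO1 (r = 0.77), GABARAPL1 (0.58) and KLF15 (0.56) passed (limma), where 32.7% of all probe sets tested did. An effect of IGF2 on these genes was not tested. Of the growth hormone axis and myostatin 7 of 18 had one. MSTN, which limits muscle growth, stood at -0.40 (SE 0.41, adjusted p = 0.743), with 0.38 in the series of 16 and -1.44 in the series of 12, and GHR, the growth hormone receptor, at -0.29 (adjusted p = 0.429).

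Of the other imprinted genes on a list of 30, 6 had a probe set and 1 was called. This was MEG3, a noncoding RNA expressed from the maternal copy, higher in DU×IB by 0.64 (SE 0.19, limma adjusted p = 0.0737). Its levels in IB lay between 5.56 and 7.52, around a median of 6.00, and those in DU×IB between 6.31 and 7.55, around 6.79, so the types overlapped, with 14 of 14 DU×IB piglets above the IB median. It has 2 probe sets, and the mean of both gave an adjusted p of 0.219. With no covariate the adjusted p was 0.181. The difference was 0.35 in the series of 16 (adjusted p = 0.997) and 1.04 in the series of 12 (adjusted p = 0.0694, limma). Its r with IGF2 was -0.20 in IB and -0.09 in DU×IB.

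Some markers of connective tissue were higher in DU×IB as well. Of 15 fibroblast and connective tissue genes 6 had a probe set, 6 of 6 differences were above 0 with a median of 0.72, and 3 were called (limma), where 2.07% of the table was called higher in DU×IB. These were COL1A1, the main collagen of the matrix, at 1.21 (SE 0.29, adjusted p = 0.027, with 0.81 in the series of 16 and 1.74 in the series of 12), COL5A1, a fibril collagen, at 0.73 (SE 0.17, adjusted p = 0.0237), and POSTN, a matrix protein, at 1.29 (SE 0.36, adjusted p = 0.0634). Tested alone (limma), the series of 16 gave COL1A1, COL5A1 and POSTN adjusted p of 0.749, 0.997 and 0.997. The series of 12 gave 0.108, 0.0827 and 0.124, so that only COL5A1 was called there. The fibroblast markers PDGFRA, DCN, COL1A2 and COL3A1 were not analysed here. The summed level of the 6 was taken as the log2 of the summed linear values. It ran from 10.60 to 12.75 in IB and from 12.26 to 13.53 in DU×IB. The types thus overlapped over all arrays, and the ranges within each series are not given here. With no covariate 0 of the 6 were called, as against 0.765% of the table. Their r with IGF2 ran from -0.25 for POSTN to 0.51 for COL5A1 in IB, around a median of 0.16. In DU×IB it ran from -0.63 for FBN1 to 0.53 for COL5A1, around 0.06. Of the 6, FBN1 passed in DU×IB (limma adjusted p = 0.0984), where 32.7% of all probe sets tested did. The part of these markers in the IGF2 difference was not tested. In whole muscle more cells of a type and more RNA per cell cannot be told apart.

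Of the other cell type markers 29 had a probe set in 7 lists, of which 1 was called higher in DU×IB and 1 lower, against 2.77% of the table in either direction. The adipocyte list had 4 measured genes with a median difference of -0.03. Of these RBP7, a retinol carrier of fat and vessel cells, was higher at 1.58 (adjusted p = 0.0202, limma). It was dim, at a mean of 2.87 in IB and 4.45 in DU×IB. Tested alone, the series of 16 gave it an adjusted p of 0.997 and the series of 12 one of 0.0698 (limma). FABP4, a fatty acid carrier, stood at 0.37, CFD, an adipocyte serine protease, at -0.44 and PNPLA2, a lipase, at -0.43, none of them called. The lower gene was NRXN3, a synaptic adhesion protein, at -0.83 (adjusted p = 0.00136, limma). Satellite cells and immature muscle, which express IGF2, had 4 of 15 genes with a probe set and 0 called, between -0.50 for MYF6, a myogenic factor, and 1.00 for ACTC1, the actin of fetal muscle (SE 0.35, adjusted p = 0.16). All 8 measured macrophage markers differed by less than 0, with a median of -0.42, and 0 were called. Endothelium and vessels had 7 measured genes, blood cells 2 and mature fibres 2, with 0 called in each.

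**Figure D5:**
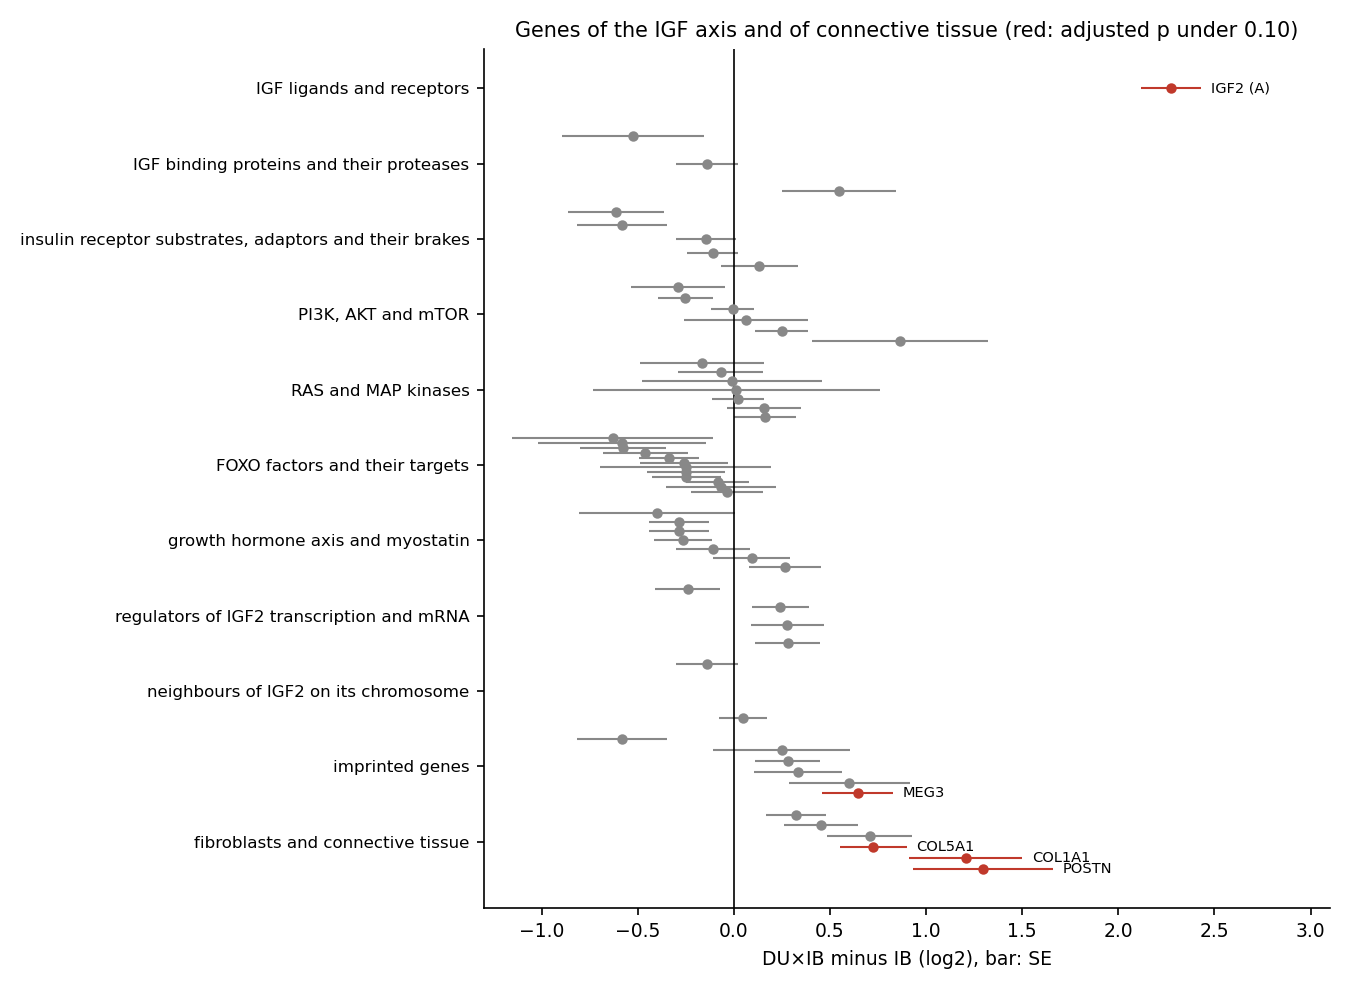
DU×IB minus IB (log2, bars are the SE) for the measured genes of 10 lists around IGF2 and of connective tissue, 1 point per gene, with red for an adjusted p under 0.10 (limma). IGF2, by probe set A, lies at 2.27, MEG3 at 0.64, and COL1A1, COL5A1 and POSTN between 0.73 and 1.29.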

How the data were processed

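Loin muscle RNA of 28 piglets was hybridized to one array each. The arrays were read with GCOS, and the authors deposited log2 values from GCRMA, run in BRB-ArrayTools, which corrects background by probe sequence and normalizes arrays to each other, and then filtered on variation; no other column was used here. Versions of these tools are left out here. A shift common to all probe sets of an array is partly removed by this normalization, and differences at low levels are compressed.

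Groups and piglet numbers came from the sample titles. Probe sets were named from the study's tables, otherwise from the array's annotation, which also names all 7 as IGF2. A gene of the lists with several probe sets was represented by the one of highest mean. In the ranking by r with IGF2 it was represented by the one of largest absolute r in that genetic type. The genes and lists described, and the series division by piglet number, were chosen with earlier results of these data known. Named genes were every IGF2 probe set, the 8 highest and 5 lowest r per genetic type (up to 5 genes if slopes had differed), all measured members of the lists of ligands, binding proteins, regulators and neighbours, and of other lists the called members or, with none, the 2 furthest apart.

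Differences and slopes were fitted with limma (lmFit and eBayes) with series as a covariate, on the whole table, after the fits had been tested on simulated data. Permutation tests used 100000 draws within series (seed 1). Sequences of the probe sets were not used here. Alternatives are given in the closing section. Software was limma 3.58.1 under R 4.3.3, and scipy 1.17.1, numpy 2.4.6, matplotlib 3.10.9 and pandas 2.3.3 under Python 3.11.15.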

Additional observations from a re-analysis of the deposited data

How the results depend on the processing

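The differences of IGF2 probe sets A to E were above 0 and past the threshold under each alternative tried: no covariate, array median centring, quantile normalization, the replicate number as a block, a trended and robust prior, array weights, dim probe sets left out (mean under 4 in both types), a threshold of 0.05, each series alone, and each piglet left out. F lost its call in the series of 12 alone (adjusted p = 0.107, limma). G, whose difference ran from 0.13 to 0.81, lost its call in 19 of 37 alternatives: with no covariate, median centring, quantile normalization, the threshold of 0.05, each series alone, and without IB piglet 1, 5, 6, 7 or 8 or DU×IB piglet 3, 4, 6, 7, 8, 9, 10 or 11 (largest adjusted p 0.142 with a piglet left out). Left out for being dim, it was not tested there. With a piglet left out, 6 to 7 of 7 were called. With the replicate number as a block 7 of 7 were called, and 145 over the table, as without it. The labels give the numbers in both types to different animals. Deviations of same-numbered piglets correlated between -0.33 and 0.54, over 0.1 in 2 of 14 pairs, so the numbers do not pair the piglets.

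Probe sets called in either direction numbered 145, and 52 with no covariate, 276 with array weights, 80 at 0.05, 9 in the series of 16 alone, 229 in the series of 12 alone, and 103 to 221 with a piglet left out, the highest without IB piglet 4.

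Counts of probe sets correlated with IGF2 moved far more. In IB (2 called) they were 3487 with no covariate, 856 with median centring, 4 with a trended and robust prior, and 0 with probe set A alone, with ranks, at 0.05, and with the array median or the spike-in mean as a covariate. Leaving out an IB piglet gave 0 to 306, with 306 without piglet 6, 303 without 12, 25 without 9 and 8 without 7. In DU×IB (1691) they were 3749 with no covariate, 1074 at 0.05, 5 with the array median and 7 with the spike-in mean as a covariate, and 1069 to 1775 with a piglet left out, the lowest without piglet 6. With median centring 847 of 1573 in DU×IB were positive, against 356 of 1691. Slopes that differed numbered 0 under each alternative in which they were tested and 0 to 33 with a piglet left out, 33 without IB piglet 3. They were not tested with ranks or with the array median or the spike-in mean as a covariate. The cause of the changes in these counts was not tested. Of the lists around IGF2, 1 gene, IGF2, was called in place of 2 when a gene's probe sets were averaged, and MEG3 was lost. Median r between IGF2 probe sets was 0.73 in IB and 0.95 in DU×IB when series were not centred. The number of arrays and, for G, levels mostly under 4 limit what can be seen.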
